A study of Mus musculus with 12 samples.

Results

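Infrarenal abdominal aortas of mice lacking CCN2 in smooth muscle were compared with those of floxed mice when neither received angiotensin II (Ang II). Both groups consisted of 3 male mice that carried mini-osmotic pumps with saline for 7 days, and they were taken by genotype and infusion from the labels. CFS mice had the genotype CCN2fl/fl, in which both Ccn2 alleles are floxed and intact. CSS mice had the genotype CCN2SMC∆, in which the same floxed alleles are recombined by a tamoxifen-inducible Cre, Cre-ERT2, driven from a Myh11 transgene a promoter of smooth muscle cells (SMCs). CSS mice received 5 doses of tamoxifen at 8 weeks of age, CFS mice had the same regimen, and 2 weeks passed before the pumps. CFS mice carry no Cre, so loss of Ccn2, presence of the Cre transgene and any background sequence that travels with it cannot be told apart here. The 6 saline mice are part of a series of 12, whose other 6 mice, 3 CCN2fl/fl (CFA) and 3 CCN2SMC∆ (CSA), were infused with Ang II at 500 ng/kg/min. Each library is 1 mouse. Of 55092 features in the table, 14676 reached an FPKM of 1 (fragments per kilobase of gene, scaled to library size) in at least 3 of the 12 libraries and were tested.

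CCN2, formerly called connective tissue growth factor, is a secreted matricellular protein. It binds integrins, heparan sulfate proteoglycans and growth factors, TGF-β among them, and it modulates how cells attach to and remodel their matrix. In the aorta it is made by SMCs, endothelial cells and adventitial fibroblasts, and it is a common target of mechanical stretch, of TGF-β and of the YAP and TAZ coactivators. A healthy aortic SMC is contractile, with abundant smooth muscle actin, myosin and calponin. It can leave that state for one in which matrix, cartilage-like or inflammatory genes are used instead. The study followed abdominal aortic aneurysm in mice without SMC CCN2, and it proposes phenotypic switching of SMCs as a driver. The saline comparison asks what the wall looks like before the aneurysm stimulus is given.

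The libraries were similar in depth. From the step size of low FPKM values, 17805951 to 20160044 fragments were recovered in CFS and 18870208 to 22805473 in CSS, and sums of FPKM over all features ranged from 275908 to 301359. The tissue label held in each of the 6 mice, with the smooth muscle actin Acta2 between 5778 and 7649.6 FPKM. The composition of single aortas varied. CFS69 had the least endothelial RNA, with the platelet and endothelial adhesion molecule Pecam1 at 38.3 FPKM against 141 to 212 FPKM in the other 5, and the most haemoglobin RNA, with Hbb-bs at 621 FPKM against 69.8 to 254 FPKM. CFS70 had the most adipocyte RNA. CFS68 and CSS55 had skeletal muscle actin, Acta1, at 75.6 and 115 FPKM against 1.12 to 1.74 FPKM in the other 4. These are bulk tissue values, in which fewer cells of a type and less RNA per cell cannot be told apart. The labels number the mice in blocks by group and name no batch, so group and order of handling cannot be told apart. Over all tested genes the root mean square log2 distance was 0.69 to 0.74 between CFS mice, 0.59 to 0.63 between CSS mice and 0.70 to 0.74 between a CFS and a CSS mouse, so 2 mice of different genotype were about as far apart as 2 CFS mice.

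Ccn2 itself, the targeted gene (ENSMUSG00000019997, chr10:24595442-24598683, GRCm38, plus strand), did not separate the saline groups. It was at 709.5, 1108 and 480.1 FPKM in CFS68, CFS69 and CFS70 and at 436, 639.9 and 587 FPKM in CSS54, CSS55 and CSS56, the order in which values are listed from here on. CSS54 lay below the CFS range and the other 2 CSS mice within it, so the groups overlapped. The means were 766 ± 318 and 554 ± 106 FPKM (SD, n = 3 each), a ratio of 0.723. The log2 fold change, on log2(FPKM + 0.1) as throughout, was -0.40 ± 0.34 with a 95% interval from -1.14 to 0.34 and an adjusted p of 1 (limma), and the 2-sided exact permutation test gave p = 0.4, where 3 against 3 mice cannot go below 0.1. Without CFS69, its highest library, the log2 fold change was -0.094, and without CFS70, the lowest CFS library, it was -0.70. In the Ang II mice, which are independent of these 6, Ccn2 was lower in CSA than in CFA (log2 fold change -1.41 ± 0.34, adjusted p = 0.0062). About 23.2% of its exonic bases are shared with another annotated gene, Gm15270. Bulk FPKM values do not say which cells the remaining Ccn2 RNA came from or whether it holds the floxed exons. In these 6 mice the label of CSS therefore rests on genotype. In a separate cohort, the paper reports less CCN2 protein in CCN2SMC∆ aortas under saline as well as under Ang II.

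Few genes separated the genotypes at baseline once p-values were adjusted. With limma fitted over the 12 libraries, 3 of 14676 genes had an adjusted p under 0.05 (0.0204%), Adm, Gm26782 and Gm3375. Adding an absolute log2 fold change over 1.5 left 2 of them (0.0136%), Gm26782 higher and Gm3375 lower. At an unadjusted p under 0.05, 452 genes were higher in CSS (3.08%) and 472 lower (3.22%), together 6.3% where 5% would be expected with no difference. With the fold limit added, 73 were higher (0.497%) and 59 lower (0.402%), and 108 of those 132 had a mean under 5 FPKM in the higher group. Over all tested genes the median log2 fold change was 0.013, with -0.62 and 0.71 as its 5th and 95th percentiles. The spread that the test uses is shared with the Ang II mice. Fitted on the 6 saline mice alone, 75 genes had an adjusted p under 0.05 (0.511%), 46 higher and 29 lower, and the 3 genes above were among them. In that fit 7.67% of all genes were higher and 6.22% lower at an unadjusted p under 0.05, more than in the 12-library fit. Without CFS68, CSS54 or CSS56 no gene passed, without CFS70 2 did, and without CFS69 or CSS55 5 did, so the gene groups below are described mainly by unadjusted p in the 12-library fit. Where a single gene is given with its test, the saline-only adjusted p stands beside it if under 0.05.

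**Figure D1:**
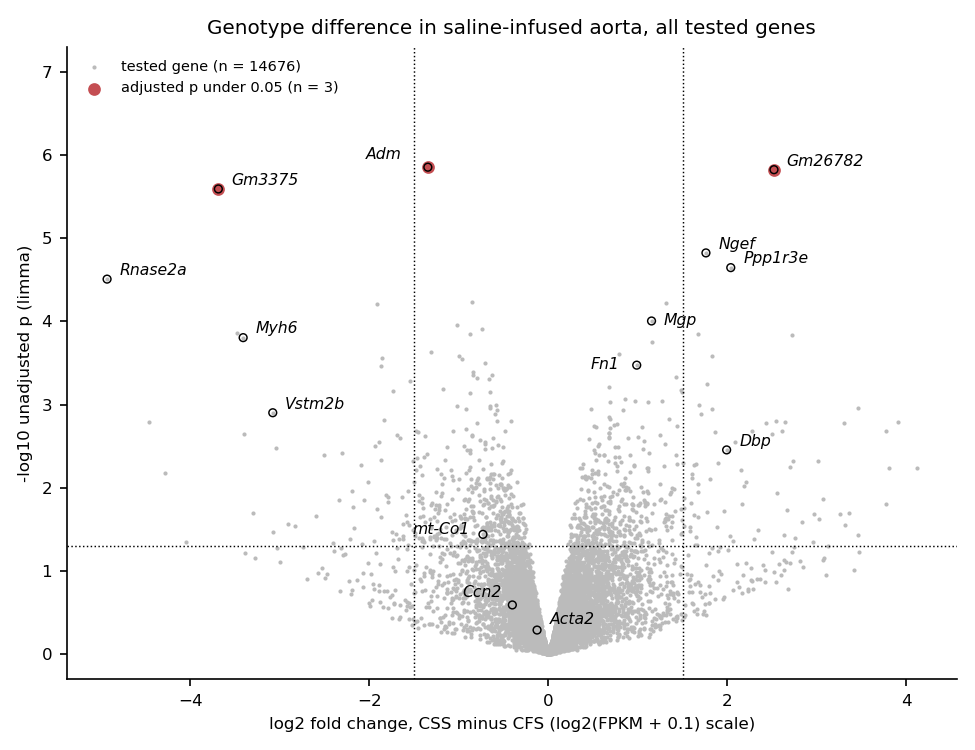
Log2 fold change of CSS against CFS (x axis, log2(FPKM + 0.1) scale) and -log10 of the unadjusted limma p (y axis) for the 14676 tested genes, each a point, with the 3 genes of adjusted p under 0.05 in red and dotted lines at a log2 fold change of -1.5 and 1.5 and a p of 0.05. Adm, Gm26782 and Gm3375 stand above the rest, while Ccn2 and Acta2 lie near the base.

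Adm fell in CSS. It encodes adrenomedullin, a vasodilator peptide that vascular cells secrete and that is a classic hypoxia-induced gene. It was at 27.7, 33.3 and 25.4 FPKM in CFS and 12.1, 10.9 and 10.6 FPKM in CSS. The highest CSS mouse was far below the lowest CFS mouse, with little spread inside either group. The means were 28.8 ± 4.08 and 11.2 ± 0.816 FPKM (SD, n = 3 each), and the difference passed the test (log2 fold change -1.35 ± 0.14, SE in the same unit, adjusted p = 0.011 over 12 libraries and 0.016 in the saline-only fit). Ang II mice gave a difference of the same sign, -2.26 ± 0.14 (adjusted p = 1.3e-06), and the interaction of genotype and treatment was -0.92 (adjusted p = 0.0063). Gm26782, an annotated antisense RNA at chr14:50870324-50880603 that overlaps the 5′ end of Tep1, rose. It was at 0.661, 0.640 and 0.835 FPKM in CFS and 4.30, 4.56 and 4.76 FPKM in CSS (log2 fold change 2.52 ± 0.27, SE in the same unit, adjusted p = 0.011 over 12 libraries and 0.004 in the saline-only fit). The groups were far apart, with a ratio of means of 6.38. No CCN2fl/fl mouse reached 1 FPKM, so Gm26782 passed the filter on low values through the CCN2SMC∆ mice alone. That filter favours a difference of this sign. Its opposite partner Tep1, a telomerase-associated protein, was at 5.02, 4.83 and 5.41 FPKM in CFS and 5.56, 5.38 and 5.13 FPKM in CSS and shares 3.52% of the exonic bases of Gm26782, and the library protocol does not state that strand was kept. Gm3375, a processed pseudogene at chr7:3181093-3181888, fell from 21.4, 18.5 and 24.3 FPKM to 1.42, 1.36 and 1.96 FPKM (log2 fold change -3.69 ± 0.41, SE in the same unit, adjusted p = 0.012 over 12 libraries and 0.0026 in the saline-only fit), which is 13.5-fold lower as a ratio of means. A processed pseudogene can share reads with its parent gene, so its level is uncertain.

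The promoters of the 2 of these 3 genes that the RefSeq promoter table holds (GRCm38.p6, from 250 bases before to 50 after the start) are printed because they belong to the features that passed the test, Adm at chr7:110627407-110627706 on the plus strand and Gm26782 at chr14:50870046-50870345 on the plus strand. Both strands were searched for ACGTG, the core of a hypoxia response element, for CACGTG, an E-box that contains it, for GGAATG, a TEAD motif, and for the CArG box of serum response factor. Capitals mark ACGTG.
Adm: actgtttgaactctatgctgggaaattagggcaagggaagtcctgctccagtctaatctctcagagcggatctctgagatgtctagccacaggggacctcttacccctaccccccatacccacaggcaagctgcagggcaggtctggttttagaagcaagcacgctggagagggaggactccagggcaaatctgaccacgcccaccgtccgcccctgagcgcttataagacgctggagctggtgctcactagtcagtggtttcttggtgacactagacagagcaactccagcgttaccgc
Gm26782: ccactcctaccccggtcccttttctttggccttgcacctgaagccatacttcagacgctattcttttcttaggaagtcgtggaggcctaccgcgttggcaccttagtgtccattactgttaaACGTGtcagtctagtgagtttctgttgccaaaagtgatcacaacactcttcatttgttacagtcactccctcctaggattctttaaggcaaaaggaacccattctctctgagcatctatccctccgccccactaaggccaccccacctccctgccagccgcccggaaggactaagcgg
The Adm window held none of the 4 motifs. The Gm26782 window held 1 ACGTG and none of the others. Of all 32851 promoters in the table, 19.6% hold ACGTG, 7.15% CACGTG, 14.7% GGAATG and 1.63% a CArG box.

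The RNA of the contractile programme of SMCs did not differ detectably at baseline. Protein is not part of the present data. In a separate cohort, the paper reports moderately lower protein of smooth muscle myosin heavy chain, smooth muscle actin and SM22 in saline-infused CCN2SMC∆ aortas. It also reports less phosphorylated serum response factor there. None of 26 contractile apparatus genes had an unadjusted p under 0.05, their log2 fold changes ran from -0.39 to 0.41, and their median was -0.069 beside 0.013 over all genes. Myh11, smooth muscle myosin heavy chain, was at 965, 1187 and 941 FPKM in CFS and 968, 836 and 982 FPKM in CSS, with overlapping groups and a 95% interval of the log2 fold change from -0.46 to 0.17. Acta2, smooth muscle actin, was at 6634, 7649.6 and 6134 FPKM in CFS and 6438, 5778 and 6435 FPKM in CSS, with an interval from -0.54 to 0.29. The intervals for Cnn1, calponin, and Tagln, SM22, ran from -0.75 to 0.40 and from -0.53 to 0.90. Tagln is uncertain, since 67.9% of its exonic bases are shared with Gm48529 and it was listed at only 18.7 to 25.0 FPKM. None of 24 smooth muscle transcriptional regulators had a p under 0.05 either. Srf, which drives contractile genes, gave 0.0018 ± 0.38, Klf4, which represses them, -0.036 ± 0.21, and Klf5 0.37 ± 0.47. Vim, an intermediate filament of modulated SMCs, and Lgals3, a galectin of modulated SMCs and macrophages, gave 0.29 ± 0.18 and -0.12 ± 0.41, with adjusted p of 0.93 and 1. Both Klf4 and Srf changed sign under equal totals or with single mice left out. The interaction of genotype and treatment was past an adjusted p of 0.05 for Myh11, Acta2, Cnn1 and Tagln, with values of -4.03, -2.73, -3.62 and -2.47, the genotype difference being more negative under Ang II. Over all genes, 15.2% had an interaction past an adjusted p of 0.05 with a difference over 1.5.

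Genes of cartilage and mineral handling stood on the higher side in CSS. In the chondrogenic and osteogenic list, 6 of 15 tested members were higher at p under 0.05 and none lower, against 3.08% and 3.22% of all genes. The median was 0.67, and in 8 of 15 every CSS mouse was above every CFS mouse (11.1% of all genes were higher without overlap and 9.31% lower). The summed level of the list was 1957, 1693 and 1999.8 in CFS and 3583, 3449 and 4087 in CSS, most of it from Mgp. Mgp, matrix Gla protein, a calcification inhibitor that SMCs and chondrocytes secrete, was at 1244, 1366 and 1360.2 FPKM in CFS and 2766, 2794 and 3289.6 FPKM in CSS, 2.23 times higher as a ratio of means. The 2 groups did not overlap (log2 fold change 1.15 ± 0.19, adjusted p = 0.13 over 12 libraries and 0.014 in the saline-only fit). Comp, cartilage oligomeric matrix protein, also made by vascular SMCs, was at 6.07, 7.55 and 5.76 FPKM in CFS and 12.8, 15.3 and 15.6 FPKM in CSS (log2 fold change 1.16 ± 0.21, adjusted p = 0.14 over 12 libraries and 0.029 in the saline-only fit). Each CSS mouse was above each CFS mouse for both genes.

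Acan, the proteoglycan aggrecan, was at 0.594, 0.537 and 0.629 FPKM in CFS and 2.33, 1.63 and 2.14 FPKM in CSS, a 3.46-fold ratio at a low level (log2 fold change 1.62 ± 0.47, adjusted p = 0.47 over 12 libraries and 0.042 in the saline-only fit). Sox9, the transcription factor of chondrocytes, was at 0.419, 0.672 and 0.351 FPKM in CFS and 1.31, 1.03 and 1.48 FPKM in CSS (log2 fold change 1.27 ± 0.28, adjusted p = 0.29). Both were low even in CSS, and each CSS mouse was above each CFS mouse. Sox9 passed the filter on low values through the CCN2SMC∆ mice alone. Tnfrsf11b, osteoprotegerin, and the Wnt inhibitor Wif1 had log2 fold changes of 0.80 ± 0.33 and 1.03 ± 0.46. Leaving out each saline mouse in turn, 4 to 5 members were higher at p under 0.05 and at most 1 lower. In the Ang II mice the genotype difference was 1.19 ± 0.21 for Comp (adjusted p = 0.0009) and -0.037 ± 0.19 for Mgp (adjusted p = 0.89).

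**Figure D2:**
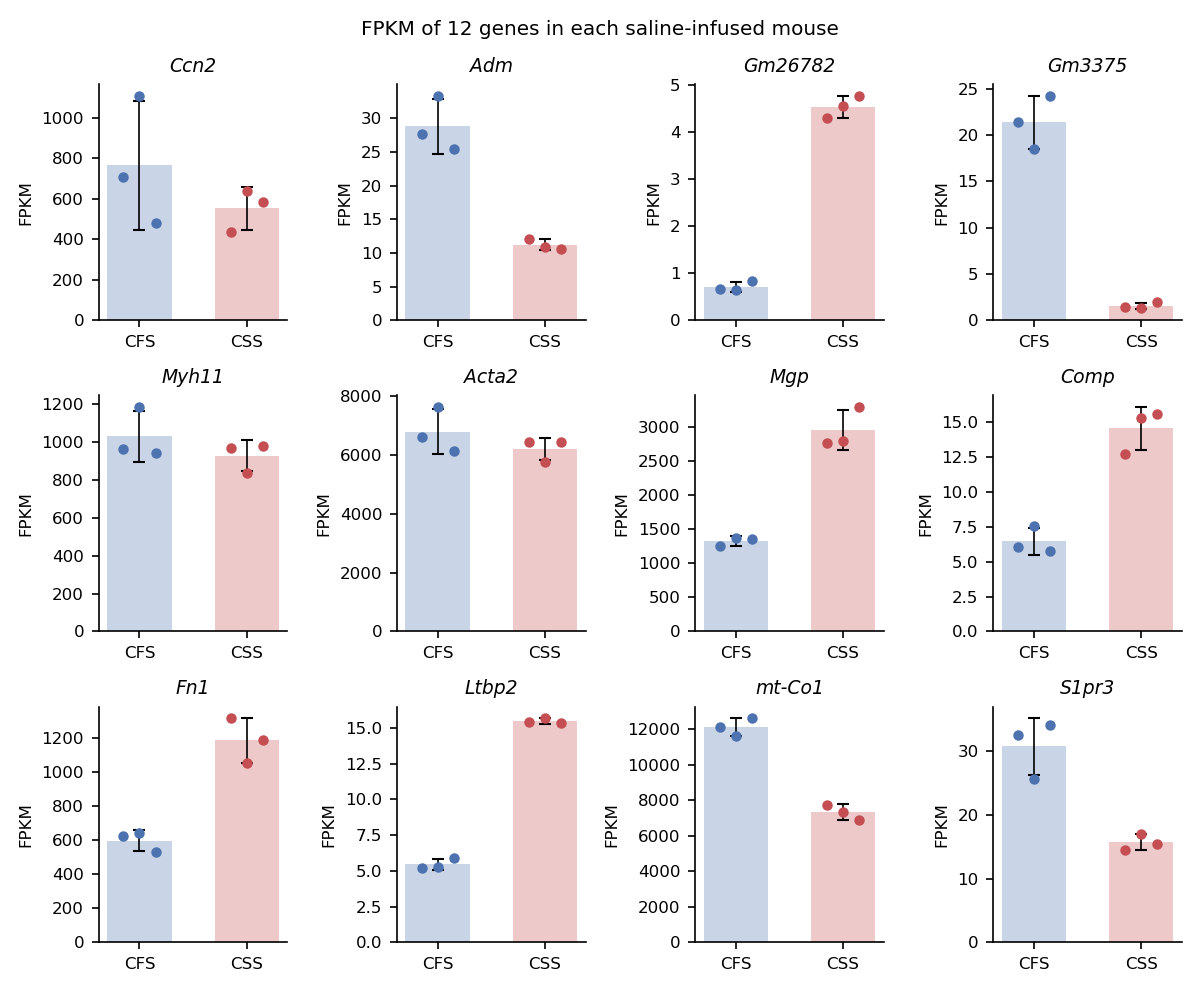
FPKM (y axes, starting at 0) of 12 genes in each saline-infused mouse, points, with bars at the group mean and error bars of 1 SD (n = 3 each, CFS in blue and CSS in red). Ccn2, Myh11 and Acta2 overlap between groups, while Adm, Gm26782, Gm3375, Mgp, Comp, Fn1, Ltbp2, mt-Co1 and S1pr3 do not.

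Matrix genes differed in both directions, while their summed level overlapped between the groups. Of 44 collagens, basement membrane and matricellular genes, 9 were higher and 5 lower at p under 0.05, with a median of 0.20. The shares over all genes were 3.08% higher and 3.22% lower. The summed FPKM of the list was from 7878 to 9242 in CFS and from 8739.7 to 9024 in CSS. Fn1, fibronectin, the glycoprotein to which cells bind through integrin α5β1, was at 623, 640 and 527 FPKM in CFS and 1315, 1051 and 1185 FPKM in CSS. It was higher in each CSS mouse than in any control (log2 fold change 0.99 ± 0.19, adjusted p = 0.19 over 12 libraries and 0.034 in the saline-only fit). Itga5, which encodes the α5 chain, was at 119, 138 and 136 FPKM in CFS and 273, 169.6 and 198 FPKM in CSS (log2 fold change 0.68 ± 0.29, adjusted p = 0.77). Postn, periostin, a matricellular protein of injured vessels, was at 115, 135 and 116 FPKM in CFS and 275, 206 and 229 FPKM in CSS (log2 fold change 0.95 ± 0.34, adjusted p = 0.65 over 12 libraries and 0.043 in the saline-only fit). Bgn, Fmod, Col4a5, Col4a6, Col5a2, Col8a1 and Comp were the others on the higher side, with log2 fold changes from 0.33 to 1.16.

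The 5 lower members were Col3a1, Col1a1, Col1a2, Ogn and Thbs4, none with an adjusted p under 0.05 in the 12-library or the saline-only fit. Col3a1, the main collagen of the adventitia and media beside type I, was at 562, 689.8 and 597 FPKM in CFS and 389, 496 and 413 FPKM in CSS (log2 fold change -0.51 ± 0.14, adjusted p = 0.45). Col1a1 was at 743, 1023 and 786 FPKM in CFS and 579.9, 696 and 634 FPKM in CSS (log2 fold change -0.41 ± 0.16, adjusted p = 0.67), and Col1a2 was lower too (log2 fold change -0.35 ± 0.14, adjusted p = 0.70). The 2 groups did not overlap for Col3a1 or Col1a1. The summed fibroblast markers, 3295, 3768 and 3273 in CFS and 2951, 2709.8 and 2794 in CSS, were lower in each CSS mouse as well, and their part in the collagen values was not tested. Ogn, osteoglycin, a small leucine-rich proteoglycan, was at 844, 827 and 563 FPKM in CFS and 404, 376 and 362 FPKM in CSS (log2 fold change -0.95 ± 0.35, adjusted p = 0.66). Thbs4, a thrombospondin of muscle and tendon, was at 1.22, 0.861 and 0.194 FPKM in CFS and 0.0327, 0.131 and 0.0559 FPKM in CSS (log2 fold change -2.09 ± 0.60, adjusted p = 0.47). With each saline mouse left out, the counts were 4 to 6 higher and 2 to 5 lower, and the saline-only fit gave 18 higher and 6 lower. Among 21 elastic fibre genes, 1 had a p under 0.05 in the 12-library fit, and 5 were higher and 1 lower in the saline-only fit. The 1 was Ltbp2, a fibrillin-binding protein, whose values were tight, 5.21, 5.30 and 5.89 FPKM in CFS and 15.4, 15.7 and 15.3 FPKM in CSS (log2 fold change 1.49 ± 0.32, adjusted p = 0.26 over 12 libraries and 0.0026 in the saline-only fit). Eln, elastin itself, was at 499, 587 and 579 FPKM in CFS and 803, 827 and 851 FPKM in CSS with no overlap, yet did not pass (log2 fold change 0.58 ± 0.42, adjusted p = 0.99). In the Ang II mice, Fn1, Postn, Col3a1 and Col1a1 had genotype differences of the opposite sign, -0.97 ± 0.19, -1.11 ± 0.34, 0.76 ± 0.14 and 0.96 ± 0.16, and that of Ltbp2 kept its sign at 1.84 ± 0.32 (adjusted p = 0.00082).

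Genes of matrix turnover also differed in both directions, while those of the TGF-β list at p under 0.05 were mostly higher. Of 35 proteases and inhibitors, 3 were higher, among them the protease inhibitor Serpine2 and the urokinase receptor Plaur, and 5 lower, the aggrecanases and procollagen proteases Adamts2, Adamts4, Adamts5 and Adamts15 and the cysteine protease Ctsk. Serpine2 was at 93.9, 101 and 83.05 FPKM in CFS and 158, 147 and 158 FPKM in CSS (log2 fold change 0.73 ± 0.18, adjusted p = 0.34 over 12 libraries and 0.038 in the saline-only fit). Adamts15 was at 22.3, 30.2 and 23.97 FPKM in CFS and 10.04, 15.5 and 9.25 FPKM in CSS (log2 fold change -1.16 ± 0.32, adjusted p = 0.45). Both were without overlap between groups. In the TGF-β and Smad list, 5 of 34 were higher and 1 lower, with a median of 0.15. Over all genes 3.08% were higher and 3.22% lower. The ligand Tgfb1 was at 12.1, 11.1 and 13.99 FPKM in CFS and 19.4, 18.3 and 19.2 FPKM in CSS (log2 fold change 0.61 ± 0.22, adjusted p = 0.62). The receptor Tgfbr1 had a log2 fold change of 0.51 ± 0.19. Smad7, the feedback inhibitor that the pathway induces, was at 13.9, 9.03 and 14.6 FPKM in CFS and 26.1, 21.6 and 19.9 FPKM in CSS (log2 fold change 0.87 ± 0.28, adjusted p = 0.56). Tgif1 and Id2 were the other 2 on the higher side, and the co-receptor Tgfbr3 was lower (log2 fold change -0.52 ± 0.19, adjusted p = 0.66). The receptor Tgfbr2 and the transducers Smad2, Smad3 and Smad4 gave -0.14 ± 0.11, -0.076 ± 0.15, 0.13 ± 0.23 and -0.069 ± 0.10, none with a p under 0.05. The counts without single mice ran from 3 to 6 higher and 0 to 2 lower, with medians of 0.074 without CFS69 and 0.11 without CFS70. The saline-only fit gave 9 higher and 2 lower for this list and 4 higher and 9 lower for the proteases and inhibitors. In that fit 7.67% of all genes were higher and 6.22% lower.

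Of 23 CCN family and YAP/TEAD genes tested, 2 were higher at p under 0.05, Ccn3 at 365, 423 and 351 FPKM in CFS and 589, 503 and 566 FPKM in CSS (log2 fold change 0.54 ± 0.19, adjusted p = 0.62) and the stretch-induced muscle protein Ankrd1 at 5.73, 5.81 and 4.99 FPKM in CFS and 12.2, 14.2 and 12 FPKM in CSS (log2 fold change 1.20 ± 0.48, adjusted p = 0.70 over 12 libraries and 0.016 in the saline-only fit). Ccn1, the close relative of Ccn2, was at 255, 468 and 85.4 FPKM in CFS and 102, 240.3 and 279.8 FPKM in CSS and followed Ccn2 in being highest in CFS69. The share of all genes that were higher was 3.08%. The list's median was 0.078, and the saline-only fit gave 5 higher and 2 lower, where 7.67% of all genes were higher and 6.22% lower. Without CFS70 none was higher and 1 lower, with a median of 0.027. Without CSS54 none was higher, with a median of 0.17, and without CFS69 3 were.

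Several receptors for vasoactive hormones were lower in CSS. Of 33 tested vasoactive receptors and peptides, 7 were lower and 1 higher at p under 0.05, against 3.22% and 3.08% of all genes. Leaving out single mice gave 5 to 7 lower. The list as a whole had 15 log2 fold changes above 0 and 18 below, with a median of -0.037. Its summed level was higher in CSS, 2081.9 to 2356.3 against 1201.6 to 1727.5 in CFS. Much of that sum was Rgs5, a regulator and not itself a receptor or peptide. Rgs5 was at 1487 to 1656 FPKM in CSS and 561 to 1041 FPKM in CFS, so the sum says little about the receptors. The 7 lower genes were Adm, the angiotensin II receptor Agtr1a, the α1A adrenergic receptor Adra1a, the prostaglandin E receptor Ptger3, the vasopressin receptor Avpr1a, the natriuretic peptide clearance receptor Npr3 and the endothelin receptor Ednrb. Agtr1a, through which Ang II acts, was at 2.33, 1.71 and 2.04 FPKM in CFS and 1.16, 1.20 and 0.775 FPKM in CSS. No CSS mouse reached the lowest CFS mouse (log2 fold change -0.90 ± 0.24, adjusted p = 0.40). Adra1a was at 4.61, 4.69 and 4.69 FPKM in CFS and 2.36, 2.86 and 2.33 FPKM in CSS (log2 fold change -0.87 ± 0.23, adjusted p = 0.40 over 12 libraries and 0.043 in the saline-only fit). The controls were nearly identical for Adra1a, and each CSS mouse was well below them. Ptger3 and Ednrb had log2 fold changes of -0.47 ± 0.15 and -1.23 ± 0.45. S1pr3, a sphingosine 1-phosphate receptor that was outside the list and was picked after its values were seen, was at 32.6, 25.7 and 34.1 FPKM in CFS and 14.6, 17.04 and 15.5 FPKM in CSS (log2 fold change -0.96 ± 0.18, adjusted p = 0.17 over 12 libraries and 0.039 in the saline-only fit).

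On the higher side was Rgs5, a regulator that shortens signalling by such receptors and marks pericytes and arterial SMCs. It was at 1041, 960.3 and 561 FPKM in CFS and 1656, 1487 and 1649 FPKM in CSS (log2 fold change 0.95 ± 0.27, adjusted p = 0.47). CFS70 was the lowest of its group for Rgs5, and the groups did not overlap. Among 25 ion channels and calcium handling genes, 2 were lower, among them the voltage-gated potassium channel Kcna5, and 3 higher, the calcium-activated chloride channel Ano1, the ryanodine receptor Ryr2 and the store-operated channel Orai1. Ano1 was at 4.40, 5.31 and 3.78 FPKM in CFS and 6.998, 8.10 and 7.46 FPKM in CSS (log2 fold change 0.74 ± 0.21, adjusted p = 0.47). The neurotrophin receptor Ntrk2 was the receptor tyrosine kinase with the smallest p, at 3.88, 4.71 and 5.54 FPKM in CFS and 2.55, 2.44 and 1.84 FPKM in CSS (log2 fold change -1.02 ± 0.23, adjusted p = 0.30), in a list where 1 of 39 was higher, Kit, and 3 lower, the others being Egfr and Kdr. Leaving out single mice gave 1 to 2 higher and 2 to 3 lower for the channels and 1 to 2 higher and 1 to 4 lower for the kinases. The shares over all genes were 3.08% higher and 3.22% lower, so counts this small say little about either list.

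Transcripts encoded by mitochondrial DNA were lower as a group. The organelle genome encodes 13 proteins of the respiratory chain and ATP synthase. Against 3.22% of all genes, 9 of the 13 were lower at p under 0.05, none higher, with a median of -0.65. Their summed level was 38646, 35211 and 37670 in CFS and 24011, 22344 and 21814 in CSS, or 11.7 to 13.5% of all FPKM in CFS and 7.73 to 8.33% in CSS. mt-Co1, cytochrome c oxidase subunit 1, was at 12137, 11630 and 12630 FPKM in CFS and 7749.5, 7332 and 6864 FPKM in CSS (log2 fold change -0.73 ± 0.31, adjusted p = 0.74 over 12 libraries and 0.027 in the saline-only fit). mt-Nd6, the one protein gene on the light strand, was at 3297, 2360.2 and 2534 FPKM in CFS and 1699.9, 1506 and 1478 FPKM in CSS (log2 fold change -0.79 ± 0.16, adjusted p = 0.22). mt-Cytb was at 6585, 6399.7 and 6923 FPKM in CFS and 4439, 4219 and 4181 FPKM in CSS (log2 fold change -0.63 ± 0.17, adjusted p = 0.39 over 12 libraries and 0.029 in the saline-only fit). The groups did not overlap for these or for 8 more of the 13, against 9.31% of all genes that were lower without overlap. mt-Nd3 was the exception in sign, at 34.05, 33.5 and 46.98 FPKM in CFS and 45.3, 42.8 and 42.7 FPKM in CSS. In the saline-only fit 6 of the 13 had an adjusted p under 0.05, against 0.511% of all genes. With single mice left out 6 to 8 of the 13 were lower at p under 0.05. Without CFS70 1 was higher. The Ang II mice had the same sign for mt-Co1 (-0.86 ± 0.31, adjusted p = 0.045), mt-Nd6 (-1.22 ± 0.16, adjusted p = 0.00014) and mt-Cytb (-1.34 ± 0.17, adjusted p = 0.0001). mt-Co2, mt-Co3, mt-Atp6 and mt-Nd3 were listed far below mt-Co1 although they lie on the same transcript unit, so their counting is uncertain. Whether tissue handling or RNA quality had a part in this difference was not tested.

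**Figure D3:**
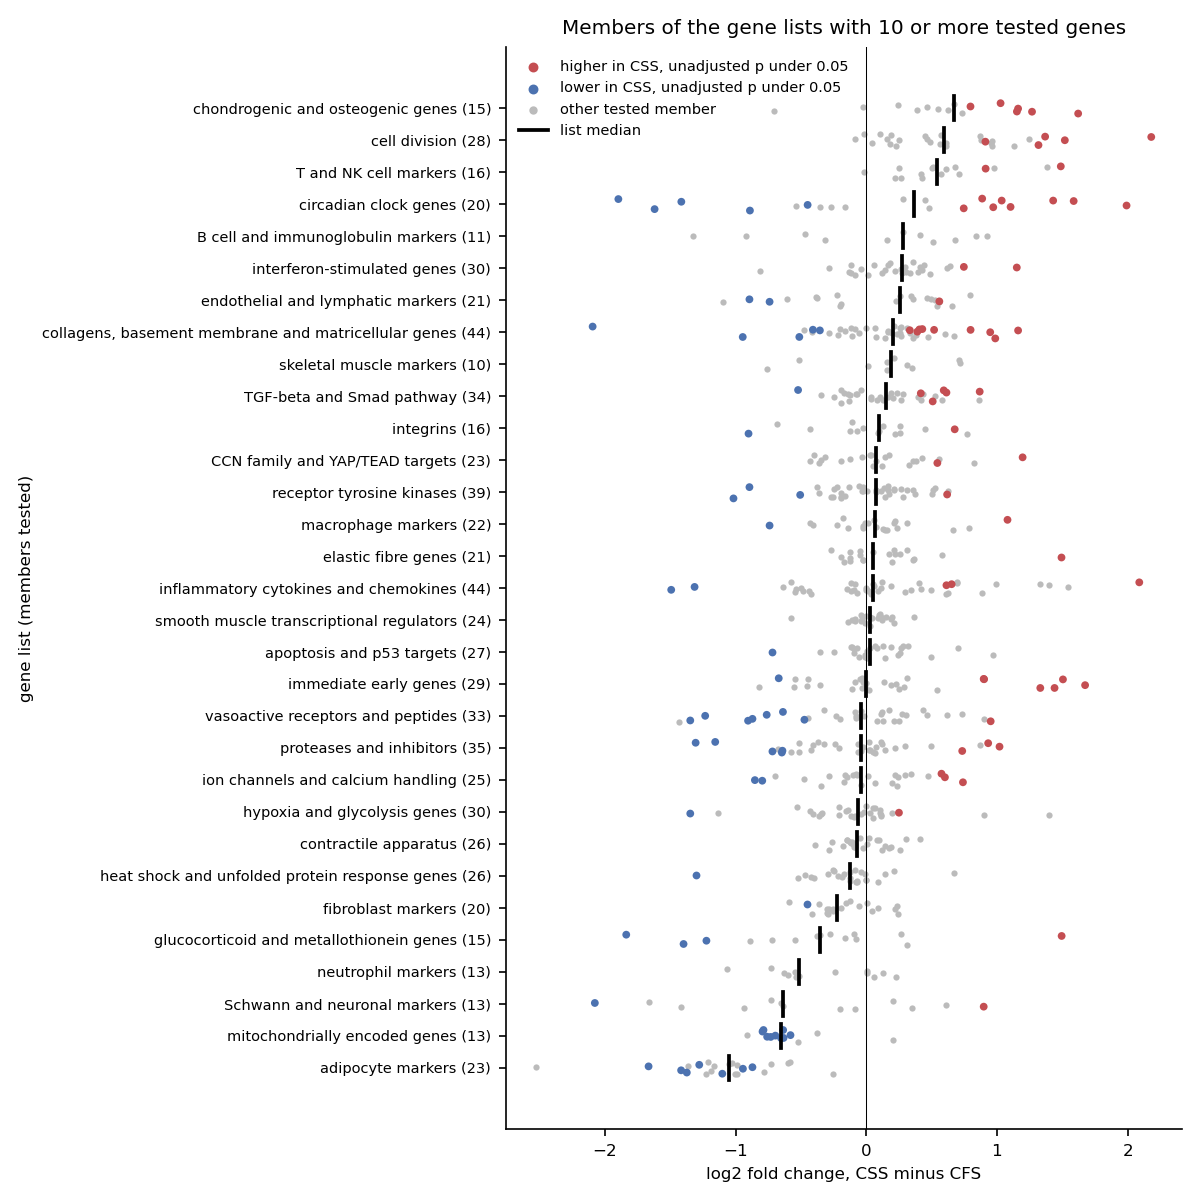
Log2 fold change of CSS against CFS (x axis) for the tested members of each gene list with 10 or more tested genes (y axis, number tested in parentheses), coloured where the unadjusted p was under 0.05, with a black bar at the list median. The chondrogenic and osteogenic list has the highest median, 0.67, and the adipocyte and mitochondrially encoded lists the lowest, -1.05 and -0.65. These ranks change without CFS70, where the adipocyte median is -0.58, the mitochondrial -0.66 and the skeletal muscle -0.68. There the chondrogenic and osteogenic median is 0.59 and that of cell division 0.73.

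Many circadian clock genes stood apart between the groups, but not evenly over the CSS mice. The clock is a loop in which BMAL1, encoded by Arntl, and its partners CLOCK or NPAS2 activate Per, Cry, Nr1d and Dbp genes through E-boxes, and the products repress the activators in turn, so that each gene peaks at its own time of day. Of 20 clock genes, 8 were higher and 5 lower at p under 0.05, against 3.08% and 3.22% of all genes. Dbp, a clock output that peaks in the day, was at 8.46, 12.9 and 15.9 FPKM in CFS and 61.95, 20.03 and 89.9 FPKM in CSS (log2 fold change 1.99 ± 0.53, adjusted p = 0.40). CSS54 and CSS56 were far above the CFS mice and CSS55 just above them. Nfil3, the repressor that oscillates opposite to Dbp, was at 27.1, 40.8 and 20.7 FPKM in CFS and 5.26, 20.5 and 3.95 FPKM in CSS (log2 fold change -1.90 ± 0.49, adjusted p = 0.37), with CSS55 again next to the controls. Nr1d1, REV-ERBα, was at 46.1, 48.5 and 77.03 FPKM in CFS and 166, 70.2 and 147 FPKM in CSS (log2 fold change 1.10 ± 0.32, adjusted p = 0.48), and there CSS55 lay within the control range. Arntl was at 5.80, 6.03 and 4.57 FPKM in CFS and 1.72, 3.53 and 1.25 FPKM in CSS (log2 fold change -1.42 ± 0.43, adjusted p = 0.50), and Npas2 at 12.5, 14.3 and 8.36 FPKM in CFS and 2.79, 8.42 and 2.06 FPKM in CSS (log2 fold change -1.62 ± 0.70, adjusted p = 0.76). Bhlhe40, a clock repressor that hypoxia and growth factors also induce, was the one with the smallest p, at 10.4, 6.14 and 10.02 FPKM in CFS and 21.2, 14.3 and 16.2 FPKM in CSS (log2 fold change 0.97 ± 0.21, adjusted p = 0.29).

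Bhlhe41, Ciart, Per3, Nr1d2 and Tef completed the higher side and Cry1 and Usp2 the lower. None of the 20 had an adjusted p under 0.05, in the 12-library or in the saline-only fit. The median of the list was 0.37. It was 0.11 without CSS56 and 0.66 without CSS55, and the counts without single mice ran from 6 to 9 higher and 3 to 4 lower. The labels do not give the hour at which each aorta was taken, so genotype and hour of collection cannot be told apart for these genes. In the Ang II mice, the genotype difference for Dbp was -1.10 ± 0.53, for Nr1d1 -1.78 ± 0.32, for Nfil3 0.47 ± 0.49 and for Cry1 0.93 ± 0.26, each opposite in sign to saline with an interaction past an adjusted p of 0.05, as was Bhlhe41 at -0.85 ± 0.39. Npas2 kept its sign at -2.51 ± 0.70 (adjusted p = 0.014), as did Arntl at -0.95 ± 0.43 (adjusted p = 0.099), Per3 was at 0.16 ± 0.33, Ciart was at 0.014 ± 0.65, and Bhlhe40 was at 1.013 ± 0.21 (adjusted p = 0.003).

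**Figure D4:**
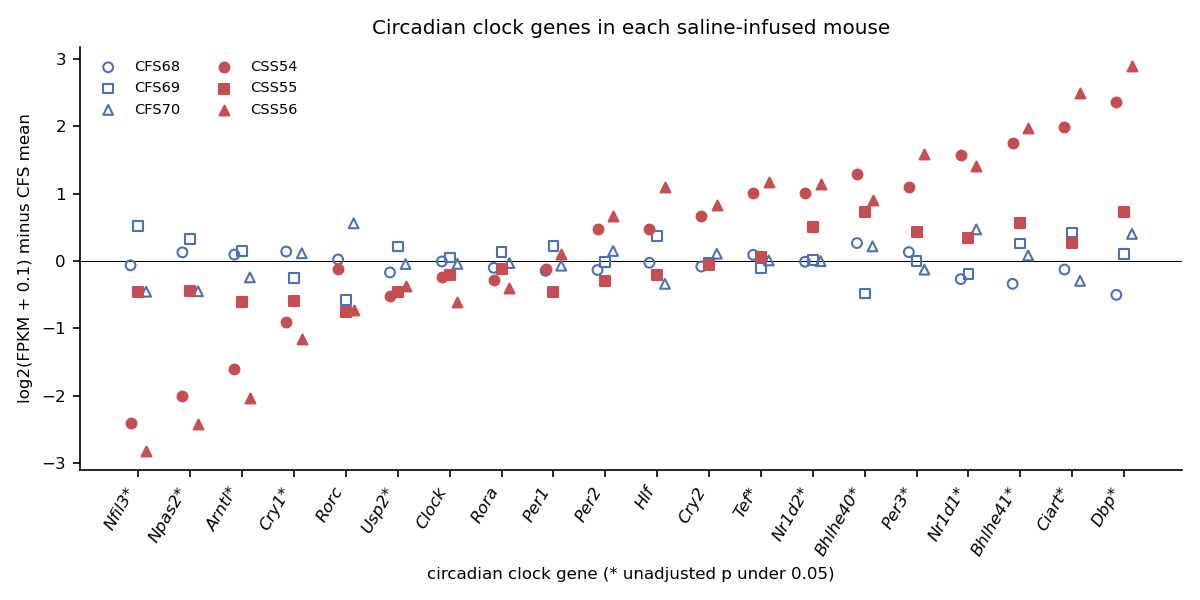
Level of each of 20 circadian clock genes in each saline mouse, as log2(FPKM + 0.1) minus the CFS mean (y axis), with CFS mice as open blue and CSS mice as filled red symbols and genes ordered by log2 fold change (x axis, asterisks for an unadjusted p under 0.05). CSS54 and CSS56 lie apart from the CFS mice at both ends, Nfil3 and Dbp, and CSS55, the squares, lies between them and the CFS mice.

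Among the clock genes with a p under 0.05, Bhlhe41, Ciart and Cry1 hold a perfect E-box, CACGTG, in the promoter window of the same RefSeq table. The windows are shown because the E-box is the site through which the clock loop acts. They lie, for Bhlhe41, at chr6:145865371-145865670 on the minus strand, for Ciart at chr3:95882179-95882478 on the minus strand and for Cry1 at chr10:85185005-85185304 on the minus strand. Capitals mark CACGTG, which reads the same on both strands.
Bhlhe41: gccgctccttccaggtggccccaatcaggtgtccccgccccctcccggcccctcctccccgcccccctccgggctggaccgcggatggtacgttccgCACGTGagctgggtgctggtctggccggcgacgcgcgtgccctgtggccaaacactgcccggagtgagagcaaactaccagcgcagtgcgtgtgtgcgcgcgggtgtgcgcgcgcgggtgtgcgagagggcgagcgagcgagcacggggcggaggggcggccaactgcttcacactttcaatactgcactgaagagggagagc
Ciart: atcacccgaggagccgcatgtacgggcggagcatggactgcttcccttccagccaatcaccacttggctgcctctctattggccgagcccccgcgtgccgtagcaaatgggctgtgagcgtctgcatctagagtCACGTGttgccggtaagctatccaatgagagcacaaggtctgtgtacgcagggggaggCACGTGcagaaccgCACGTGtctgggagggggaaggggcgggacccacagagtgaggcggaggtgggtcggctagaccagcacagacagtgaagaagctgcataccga
Cry1: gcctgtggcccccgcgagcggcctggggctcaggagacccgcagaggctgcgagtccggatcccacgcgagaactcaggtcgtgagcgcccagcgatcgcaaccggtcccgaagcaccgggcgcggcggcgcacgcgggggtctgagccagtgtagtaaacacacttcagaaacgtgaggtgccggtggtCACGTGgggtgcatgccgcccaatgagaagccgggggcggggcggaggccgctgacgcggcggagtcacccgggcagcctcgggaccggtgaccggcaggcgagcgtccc
The Ciart window held 3 copies and the others 1 each. Tef, on the higher side, holds it too. Ciart, a repressor of the loop, and Bhlhe41 were higher in CSS and Cry1 lower, at 4.05, 3.06 and 3.98 FPKM in CFS and 1.90, 2.39 and 1.58 FPKM in CSS (log2 fold change -0.89 ± 0.26, adjusted p = 0.49). Of the 17 clock genes with a promoter in the table, 5 had CACGTG, the other two being Tef and Per1. The share of all promoters with it is the 7.15% given above, and a match is a description of letters, not of binding.

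Immediate early genes, which are induced within minutes by growth factors, stretch or tissue handling, had more members higher than lower at p under 0.05. Over all genes 3.08% were higher and 3.22% lower at that limit. Of 29 tested, 6 were higher at p under 0.05, Fosl1, Egr2, Egr3, Arc, Dusp5 and Maff, and 1, Zfp36, was lower. Fosl1, an AP-1 subunit, was at 2.06, 1.88 and 2.82 FPKM in CFS and 6.90, 6.67 and 5.17 FPKM in CSS (log2 fold change 1.44 ± 0.35, adjusted p = 0.34 over 12 libraries and 0.039 in the saline-only fit), though 57.2% of its exonic bases are shared with Ccdc85b. Egr3 was at 3.59, 4.26 and 2 FPKM in CFS and 7.05, 10.3 and 10.3 FPKM in CSS (log2 fold change 1.51 ± 0.43, adjusted p = 0.47), and Arc at 1.63, 3.29 and 1.12 FPKM in CFS and 4.40, 7.52 and 6.67 FPKM in CSS (log2 fold change 1.67 ± 0.53, adjusted p = 0.55). These CSS values were all above the CFS values. Fos, the best known member, went the other way without separating, at 59.8, 132 and 24.7 FPKM in CFS and 17.6, 34.4 and 58.6 FPKM in CSS. The median was -0.0048, and leaving out single mice gave 3 to 6 higher and 0 to 4 lower, the 4 without CFS70. Without CFS69 the median was 0.36, and without CFS70 it was -0.17.

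Cell division genes stood on the higher side at low levels. Of 28, 5 were higher at p under 0.05 and none lower, against 3.08% and 3.22% of all genes. For 13 of the 28 each CSS mouse was above each CFS mouse, against 11.1% of all genes, and the median was 0.59, or 0.21 with a pseudocount of 1. The 5 were Mcm6, Plk1, Ccna2, Cdc20 and Top2a. Mcm6, a subunit of the replicative helicase, was at 6.23, 9.25 and 0.957 FPKM in CFS and 20.7, 14.2 and 19.6 FPKM in CSS (log2 fold change 2.18 ± 0.69, adjusted p = 0.56). CFS70 was far below the other 5 mice for Mcm6, and without it the Mcm6 log2 fold change was 1.23. Plk1, a mitotic kinase, was at 0.246, 0.243 and 0.290 FPKM in CFS and 0.881, 0.810 and 0.794 FPKM in CSS (log2 fold change 1.37 ± 0.45, adjusted p = 0.57), and Mki67, the proliferation antigen, at 0.430, 0.213 and 0.542 FPKM in CFS and 0.631, 1.29 and 0.667 FPKM in CSS (log2 fold change 0.96 ± 0.64, adjusted p = 0.96). Without CFS69 or without CSS55 the count was 2 of 28.

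Among protein-coding genes whose higher group averaged 5 FPKM or more, with an unadjusted p under 0.05, an absolute log2 fold change over 1.5 and no overlap, 7 were higher and 8 lower. Mcm6, Dbp, Arc and Egr3 on the higher side and Nfil3 on the lower were described above. Errfi1, an inhibitor of EGF receptor signalling that glucocorticoids and stretch induce, was at 122, 253 and 121 FPKM in CFS and 40.1, 75.2 and 27.02 FPKM in CSS (log2 fold change -1.84 ± 0.44, adjusted p = 0.33). Arrdc3, an arrestin-domain regulator of adrenergic receptors, was at 36.4, 45.3 and 36.8 FPKM in CFS and 15.5, 10.7 and 14.6 FPKM in CSS (log2 fold change -1.54 ± 0.32, adjusted p = 0.23 over 12 libraries and 0.025 in the saline-only fit). Both were lower in every CSS mouse, Errfi1 with its highest value in CFS69. Vstm2b, a membrane protein of the immunoglobulin superfamily, was at 18.2, 31.3 and 17.2 FPKM in CFS and 2.02, 4.42 and 1.62 FPKM in CSS (log2 fold change -3.08 ± 0.71, adjusted p = 0.31 over 12 libraries and 0.049 in the saline-only fit) and kept a difference of -3.38 ± 0.71 in the Ang II mice (adjusted p = 0.003). Mrgprf, an orphan receptor of smooth muscle, was at 116, 70.1 and 18.3 FPKM in CFS and 16.3, 15.9 and 13.1 FPKM in CSS (log2 fold change -1.81 ± 0.60, adjusted p = 0.60), with CFS70 close to the CSS mice. Without CFS70 the Mrgprf log2 fold change was -2.58. Ngef, a guanine nucleotide exchange factor, was at 1.40, 1.23 and 1.53 FPKM in CFS and 5.95, 3.51 and 5.70 FPKM in CSS (log2 fold change 1.76 ± 0.24, adjusted p = 0.055 over 12 libraries and 0.038 in the saline-only fit).

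Gpx3, secreted glutathione peroxidase, Lrg1, a TGF-β modulator, and Depp1, a FOXO-induced gene, were the other 3 lower genes, and each was highest in CFS70, the mouse with the most adipocyte RNA. Gpx3 was at 92.1, 129 and 331 FPKM in CFS and 70.1, 54.4 and 30.3 FPKM in CSS (log2 fold change -1.69 ± 0.43, adjusted p = 0.35). Without CFS70 the log2 fold changes of Gpx3, Lrg1 and Depp1 were -1.16, -1.07 and -1.51. Ccl21a, a chemokine of lymphatic vessels and lymph nodes, was higher, at 3.50, 3.59 and 11.5 FPKM in CFS and 21.7, 25.4 and 21.4 FPKM in CSS (log2 fold change 2.09 ± 0.54, adjusted p = 0.38), with counts that near-identical copies of the gene could split. The seventh higher gene, Ang, is described with chromosome 14. Of 15 glucocorticoid and metallothionein genes, 3 were lower (1 to 4 with single mice left out), Errfi1, Pdk4 and Angptl4, and 1 higher, Mt2, which was listed at 0 in each CFS mouse and under 0.32 FPKM in CSS.

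Markers of the other cell types that a bulk aorta can hold varied widely between single mice. Of 23 adipocyte genes, 7 were lower in CSS at p under 0.05 and none higher, against 3.22% and 3.08% of all genes. The median of these 23 was -1.05. Their summed level was 1654, 1616 and 5193 in CFS and 1835, 1071 and 590.4 in CSS, with CFS70 far above the other 5 mice, among which the groups overlapped. Without CFS70, or without CSS56, none of the 23 had a p under 0.05, and without CSS54 16 had. The median was -0.58 without CFS70, -0.65 without CSS56 and -1.52 without CSS54. The saline-only fit gave 1 of 23 lower. Cfd, adipsin, was at 531, 628 and 2262 FPKM in CFS and 589.7, 345 and 116 FPKM in CSS, and Ucp1, the uncoupling protein of brown fat, was at 18.4 FPKM in CFS70 and at most 0.395 FPKM in the other 5. The part that perivascular fat had in other differences was not tested. Gpx3, Lrg1 and Depp1, each highest in CFS70, had smaller differences of the same sign without that mouse, as given above.

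Of 20 fibroblast genes, 1 was lower in the 12-library fit, the matrix protein Dpt at 245, 253 and 235 FPKM in CFS and 169.7, 177 and 188 FPKM in CSS, and 6 were lower in the saline-only fit. In the saline-only fit 6.22% of all genes were lower. For 8 of the 20 fibroblast genes each CSS mouse was below each CFS mouse, against 9.31% of all genes, and the list sums given with the collagens did not overlap. Endothelial and lymphatic genes had 1 of 21 higher, Erg, and 2 lower, Kdr and Lyve1, with sums from 264 to 797 in CFS and from 598 to 826 in CSS, the lowest being CFS69. Lyve1, which both lymphatic vessels and resident macrophages carry, was at 19.9, 19.9 and 21.1 FPKM in CFS and 13.1, 11.8 and 11.5 FPKM in CSS (log2 fold change -0.74 ± 0.30, adjusted p = 0.70 over 12 libraries and 0.025 in the saline-only fit). Macrophage genes had 1 of 22 higher, Cx3cr1, and 1 lower, Lyve1, with sums from 382 to 445 in CFS and from 392 to 467 in CSS, and Cd68 gave 0.06 ± 0.31. Of 16 T and NK cell genes 2 were higher, Lck and Gzmb, at low levels, with sums from 2.39 to 7.52 in CFS and from 5.82 to 12.2 in CSS, and Tnf was at 0.132, 0.0326 and 0.141 FPKM in CFS and 0.394, 0.132 and 0.308 FPKM in CSS, all under 0.4 FPKM. B cell sums ran from 23.4 to 38.4 in CFS and from 10.9 to 43.4 in CSS, neutrophil sums from 10.1 to 22.3 in CFS and from 8.71 to 10.4 in CSS, erythrocyte sums from 144 to 1258 in CFS and from 431 to 526 in CSS and skeletal muscle sums from 60.6 to 295 in CFS and from 113 to 448 in CSS, all of them overlapping between groups. Of 44 inflammatory cytokines and chemokines 3 were higher, Tgfb1, Ccl21a and Cx3cl1, and 2 lower, Cxcl13 and Cxcl14. Of 30 interferon-stimulated genes 2 were higher, Gbp4 and Igtp. With single mice left out, the cytokine counts ran from 2 to 4 higher and 0 to 3 lower. The interferon-stimulated count was 1 without CFS69, CSS54 or CSS55 and 4 without CFS68 or CSS56, and that list's median ran from 0.015 to 0.43.

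The remaining lists held few differences, beside shares over all genes of 3.08% higher and 3.22% lower at p under 0.05. Of 16 integrin genes, 1 was higher, Itga5, and 1 lower, Itga6. Heat shock and unfolded protein genes had 1 of 26 lower, Asns, apoptosis and p53 targets 1 of 27 lower, Trp53inp1 (with Phlda3 past an adjusted p of 0.05, higher, in the saline-only fit), and hypoxia and glycolysis genes 1 of 30 lower, Adm, and 1 higher, Pfkp. Schwann and neuronal genes had 1 of 13 in each direction, Egr2 and Npy. Among 9 lymph node stroma genes 4 were tested, of which Ccl21a was higher and Cxcl13 lower. Krt18, the 1 mesothelial gene tested, was higher (log2 fold change 1.39 ± 0.53, adjusted p = 0.68). The Y-linked list summed to 40.5 to 48.0 FPKM in the 6 male mice with no p under 0.05.

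Genes with a small p were counted along the genome, and whether they were spread unevenly was not tested. Over all genes, 1.75% had an unadjusted p under 0.01. In windows of 5 Mb, the highest counts were 8 of 57 genes on chromosome 14 between 50 and 55 Mb, 8 of 32 features on the mitochondrial chromosome and 5 of 19 on chromosome X between 165 and 170 Mb, while 364 of 537 windows had none. These windows were singled out after their values were seen. The 8 genes on chromosome 14, in order, were Gm26782, Klhl33, Pnp, Ang, Rnase2a, Haus4, Ppp1r3e and Myh6, of which Gm26782 had passed the test. Ang, the ribonuclease angiogenin (chr14:51091150-51102009), was at 1.13, 2.09 and 1.74 FPKM in CFS and 6.63, 5.70 and 5.58 FPKM in CSS (log2 fold change 1.83 ± 0.34, adjusted p = 0.17 over 12 libraries and 0.036 in the saline-only fit), with 18.2% of its exonic bases shared with Rnase4. Rnase2a, an eosinophil-type ribonuclease (chr14:51255262-51256112), was at 2.90, 3.10 and 2.86 FPKM in CFS and at 0 in each CSS mouse, at least 13.3-fold lower against a floor of 3 fragments per library, 0.223 FPKM on average, with an adjusted p of 0.076 over 12 libraries and 0.0026 in the saline-only fit. The differences of Ang and Rnase2a were of opposite sign.

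Ppp1r3e, a regulatory subunit of protein phosphatase 1 (chr14:54872669-54877550), was at 0.820, 0.789 and 0.948 FPKM in CFS and 4.44, 3.12 and 3.96 FPKM in CSS (log2 fold change 2.04 ± 0.29, adjusted p = 0.066 over 12 libraries and 0.016 in the saline-only fit). Myh6, cardiac α-myosin heavy chain (chr14:54941921-54966927), was at 1.54, 2.59 and 4.58 FPKM in CFS and 0.144, 0.1203 and 0.219 FPKM in CSS (log2 fold change -3.41 ± 0.60, adjusted p = 0.14 over 12 libraries and 0.036 in the saline-only fit). Pnp, purine nucleoside phosphorylase, Haus4 and Klhl33 had log2 fold changes of -0.84 ± 0.17, -0.995 ± 0.19 and -1.66 ± 0.42. Just past the window, Tgm1, a transglutaminase, was at 0, 0.0338 and 0 FPKM in CFS and 0.187, 0.375 and 0.203 FPKM in CSS, close to 0 in each CFS mouse. It passed the filter on low values through the CSA mice alone, so its sign under Ang II was fixed by that filter. The Ang II mice, other animals of the same 2 genotypes, had the same sign for 6 of the 8, and for 5 of the 8 also an adjusted p under 0.05. That limit alone, with either sign, was passed there by 40.7% of all genes. The share with the same sign among genes with a p under 0.01 is given at the end of this paragraph. The genotype difference under Ang II was 2.16 ± 0.27 for Gm26782, 2.23 ± 0.34 for Ang, -4.80 ± 0.72 for Rnase2a, 1.67 ± 0.29 for Ppp1r3e and -3.03 ± 0.60 for Myh6. In CSA, Rnase2a was at 0, 0 and 0.473 FPKM and Myh6 at 0.0146, 0.0140 and 0 FPKM. The sizes of these 2 differences therefore depend on the pseudocount of 0.1. Gm26782 passed the filter on low values through CCN2SMC∆ mice alone, and Rnase2a and Myh6 through CCN2fl/fl mice alone. Pnp and Haus4 differed from their saline values (interaction adjusted p = 3.7e-05 and 0.0093). Of all 257 genes with a p under 0.01, 143 had the same sign under Ang II, 88 of them with an adjusted p under 0.05. Whether the genotypes differ in DNA sequence on chromosome 14 was not tested.

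**Figure D5:**
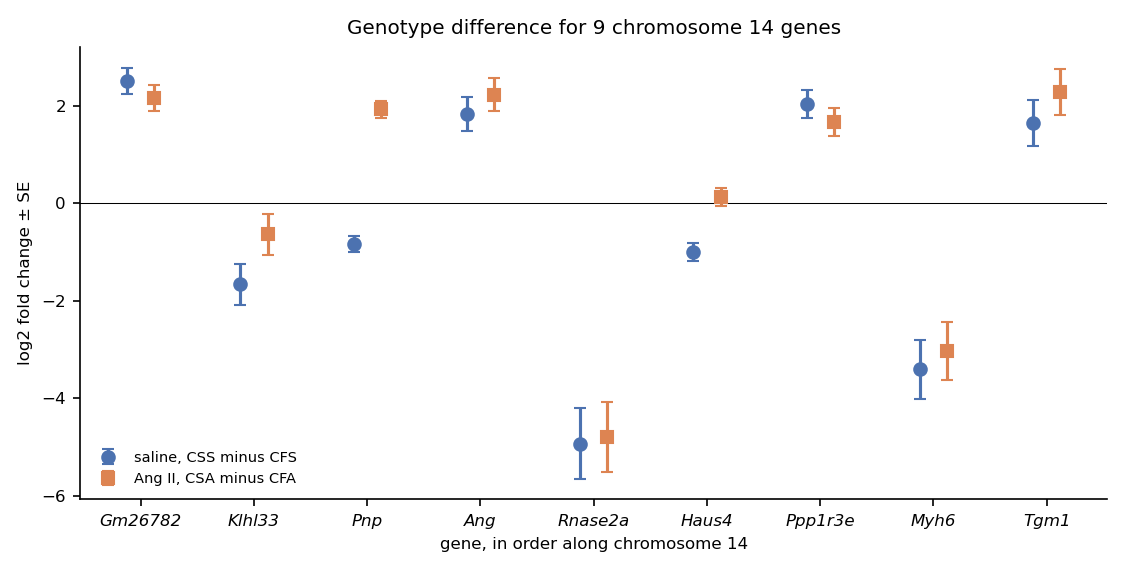
Log2 fold change ± SE between genotypes (y axis) for 9 genes in their order along chromosome 14 (x axis, not to distance), in saline mice (circles) and in Ang II mice (squares). Gm26782, Klhl33, Ang, Rnase2a, Ppp1r3e and Myh6 have the same sign in both sets of mice, and Pnp and Haus4 do not. Tgm1 was tested only through its level in CSA mice.

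On chromosome X the 5 genes were Tlr7, Prps2, Arhgap6, Hccs and Mid1, all higher in CSS. Prps2, which makes the precursor of nucleotides, was at 15.02, 14.2 and 11.96 FPKM in CFS and 22.1, 22.8 and 20.8 FPKM in CSS (log2 fold change 0.68 ± 0.16, adjusted p = 0.33), and Hccs, holocytochrome c synthase, at 4.13, 3.15 and 3.55 FPKM in CFS and 5.66, 6.70 and 6.53 FPKM in CSS (log2 fold change 0.79 ± 0.15, adjusted p = 0.17), sharing 25.9% of its exonic bases with Arhgap6. Under Ang II, Hccs, Mid1 and Tlr7 kept the sign and Arhgap6 reversed it. Around Ccn2 and the endogenous Myh11 gene, differences were few. Of 12 tested genes within 1 Mb of Ccn2, none had a p under 0.05. Of 19 within 1 Mb of Myh11, 1 did, Fopnl at chr16:14299244-14317405, next to Myh11. Fopnl, a centrosomal protein, was at 4.31, 3.56 and 3.30 FPKM in CFS and 5.07, 5.36 and 5.21 FPKM in CSS (log2 fold change 0.48 ± 0.14, adjusted p = 0.49), 1.40 times the control mean, and its difference under Ang II was 0.59 ± 0.14 (adjusted p = 0.0068). Myh11 itself had a ratio of 0.901.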

How the data were processed

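RNA was sequenced from abdominal aortas as paired reads of 150 bases. The deposited table gives FPKM per gene and mouse, made by the authors. The submitters' processing notes name HISAT2 2.0.5, StringTie 1.3.3b, featureCounts 1.5.0-p3 and the build mm10, with filters and strand setting not given in the sources used here. Low values of a library are whole multiples of 1 fragment (98.2 to 98.4% of values under 100 fragments within 0.05), which gave the depth. Genes were placed on GRCm38 with GENCODE M21.

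Genes with at least 1 FPKM in at least 3 of 12 libraries were tested on log2(FPKM + 0.1) with limma 3.58.1 in R 4.3.3 (4 group means, trended and robust eBayes, Benjamini-Hochberg over 14676 genes). Calls needed both an adjusted p below 0.05 and a log2 fold change beyond 1.5 in size. p-values measure the spread between 3 mice per group. On simulated data for 14105 genes the test called 84 of 100 genes changed 4-fold, 93 of 100 changed 8-fold and 3 of 13905 unchanged ones. Its noise was drawn independently for each gene and library. With so many large changes planted, the adjusted limit is easier to pass than in the real data, where 3 genes passed. These shares are therefore not the power of the real comparison. Lists are described by counts and medians. Alternatives were the pseudocount, the filter, the scaling, the variance model, the saline-only fit and each saline mouse left out.

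The comparison, the 35 gene lists and the rule for named genes were chosen with earlier results of these data known. The rule took the genes the study names in aorta, every gene with an adjusted p under 0.05, up to 12 protein-coding genes per direction with p under 0.05, a fold change of that size, no overlap and a higher group averaging 5 FPKM or more, the 2 members of each list with the largest change and any with p under 0.01, and neighbours of Ccn2 and Myh11 within 1 Mb with p under 0.05. Other list members are named beside their counts after their values were seen. Some list members are not reported here.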

Additional observations from a re-analysis of the deposited data

Results flagged for a closer look

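For 32 of the 109 genes named, the genotype difference under Ang II differed from that under saline by the interaction term of the 12-library fit (adjusted p under 0.05, absolute difference over 1.5). Over all 14676 tested genes 2231 did (15.2%). Values are the Ang II difference minus the saline difference, in log2 units. 21 were below 0: Myh11 -4.03, Cnn1 -3.62, Rgs5 -3.325, Dbp -3.09, Adra1a -3.09, Ngef -2.95, Nr1d1 -2.89, Acta2 -2.73, Tagln -2.47, Pecam1 -2.40, Egr3 -2.35, Serpine2 -2.31, Bhlhe41 -2.28, Wif1 -2.26, Ccn3 -2.21, Postn -2.06, Fn1 -1.96, Arhgap6 -1.77, Srf -1.58, Smad7 -1.525 and Ptger3 -1.515. 11 were above 0: Thbs4 4.10, Depp1 2.999, Gpx3 2.99, Cd68 2.98, Lrg1 2.90, Tlr7 2.855, Pnp 2.77, Lgals3 2.62, Tnf 2.55, Nfil3 2.37 and Cry1 1.82. Tnf passed the filter on low values through the CSA mice alone, so its sign under Ang II was fixed by that filter.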

How the results depend on the processing

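How many genes passed depended on the fit, and the cause was not tested. With only the 6 saline mice, 20 genes were called and 75 had an adjusted p under 0.05. With array weights these were 35 and 148. Without a filter on low values they were 5 and 6, with 327 at the unadjusted limit and fold. A mean of at least 5 FPKM gave 1 called and 18 at the unadjusted limit, where fewer genes are tested. A filter on the 6 saline libraries gave 82 at that limit. A pseudocount of 1 gave 24 there and 5 with adjusted p under 0.05. Scaling to equal totals gave 4 called and 5 with adjusted p under 0.05 and moved the median of all genes by 0.06. The limma treat test, which requires the fold itself, called 0. With each saline mouse left out, 0 to 4 genes were called and 0 to 5 had an adjusted p under 0.05. Over the alternatives the adjusted p of Adm ran from 0.00076 to 0.10, under 0.05 in 13 of 16. That of Gm26782 ran from 0.00047 to 0.10, 12 of 15, and that of Gm3375 from 6.6e-06 to 0.11, 11 of 16. Over 17 alternatives, 10 of 1687 values reversed, in 4 genes. Median-of-ratios scaling is included in all these tallies, but its factor was the same for each library, so it could change nothing. Klf4 was at 0.025 with equal totals and from -0.19 to 0.065 with single mice left out, Srf from -0.047 to 0.081, Cd68 from -0.012 to 0.13 and Pecam1 from -0.22 to 0.97, the lowest without CFS69. The TGF-β list median was 0.21 with equal totals, 0.074 without CFS69 and 0.11 without CFS70, the clock median 0.43 with equal totals and 0.11 to 0.66 with single mice left out, and the cell division median 0.21 with a pseudocount of 1. No paired analysis was possible because the groups share no replicate numbers. With 3 mice a group and counts of single fragments at the low end, precision is limited: the median SE was 0.24, and the smallest log2 difference with an adjusted p under 0.05 was 1.35 in size, or 0.54 in the saline-only fit.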
